A study of Equus caballus with 8 samples.

Results

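Local steroid-metabolising enzymes set how much active hormone a tissue sees from a given blood level, and 10 genes of this kind were followed in the uterine lining of the mare. They comprise the hydroxysteroid dehydrogenases HSD11B1, HSD11B2, HSD17B2, HSD17B4, HSD17B8, HSD17B11, HSD17B12 and HSD17B14 and the steroid reductases SRD5A1 and SRD5A3. They were chosen by symbol, and all 10 were found among the 24942 Gene IDs of the read count table. Of the 10, 8 passed the filter on low counts and were tested. HSD11B1 and HSD17B2 did not pass it, with 46 and 17 reads over all libraries.

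RNA was sequenced from endometrial biopsies of 4 cycling Bavarian Warmblood mares. Every mare was sampled once when 12 days pregnant and once in a non-pregnant cycle at Day 12, in random order, so that 4 pregnant and 4 cyclic libraries form 4 pairs. In both groups human chorionic gonadotropin (1500 IU) was injected to bring on ovulation, and the biopsy followed flushing of the uterus; the labels describe insemination with semen of 1 stallion for all mares and give no ages and no separate protocol for the control cycle. Pregnancy was established by ultrasound detection of the embryonic vesicle before the flush. A biopsy mixes luminal and glandular epithelium, stroma, vessels and immune cells. Total counts were 15.5 to 16.5 M in the cyclic libraries and 16.4 to 16.7 M (M, 1000000 counts) in the pregnant libraries of mares 2 to 4, against 9.81 M in the pregnant library of mare 1.

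The enzymes fall into 3 kinds of chemistry. HSD11B1 regenerates active cortisol from cortisone, and HSD11B2 carries out the opposite oxidation and so keeps cortisol away from the mineralocorticoid receptor. The HSD17B enzymes interconvert active and weak oestrogens and androgens, but several have a main role in fatty acid metabolism. SRD5A1 reduces testosterone to dihydrotestosterone and progesterone to dihydroprogesterone, a progestin that circulates at high levels in pregnant mares later in gestation, whereas SRD5A3 acts mainly on polyprenol, in the synthesis of the dolichol that carries N-glycan precursors.

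The comparison of Day 12 of pregnancy with Day 12 of the cycle asked which of these transcripts differ when a conceptus is in the uterus. HSD11B2 fell from 18.1 ± 4.15 to 10.3 ± 0.513 CPM and SRD5A3 from 134.8 ± 14.9 to 97.3 ± 14.4 CPM, while SRD5A1 rose from 3.05 ± 0.484 to 5.77 ± 1.65 CPM (mean ± SD, n = 4 mares; CPM is counts per 1000000 reads, scaled between libraries). Thus 3 of the 8 tested enzymes changed, beside 16.7% of all 15342 genes tested; 1 rose and 2 fell, beside 8.53% and 8.19% of all genes. A gene is said to have changed where the adjusted p of edgeR's quasi-likelihood test with the mare as block was below 0.05. The group ranges of these 3 enzymes did not overlap, as in 10.7% of all genes tested (6.0% higher and 4.73% lower in pregnancy). The median log2 fold change over the 8 was -0.00, next to 0.00 over all genes tested.

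**Figure D1:**
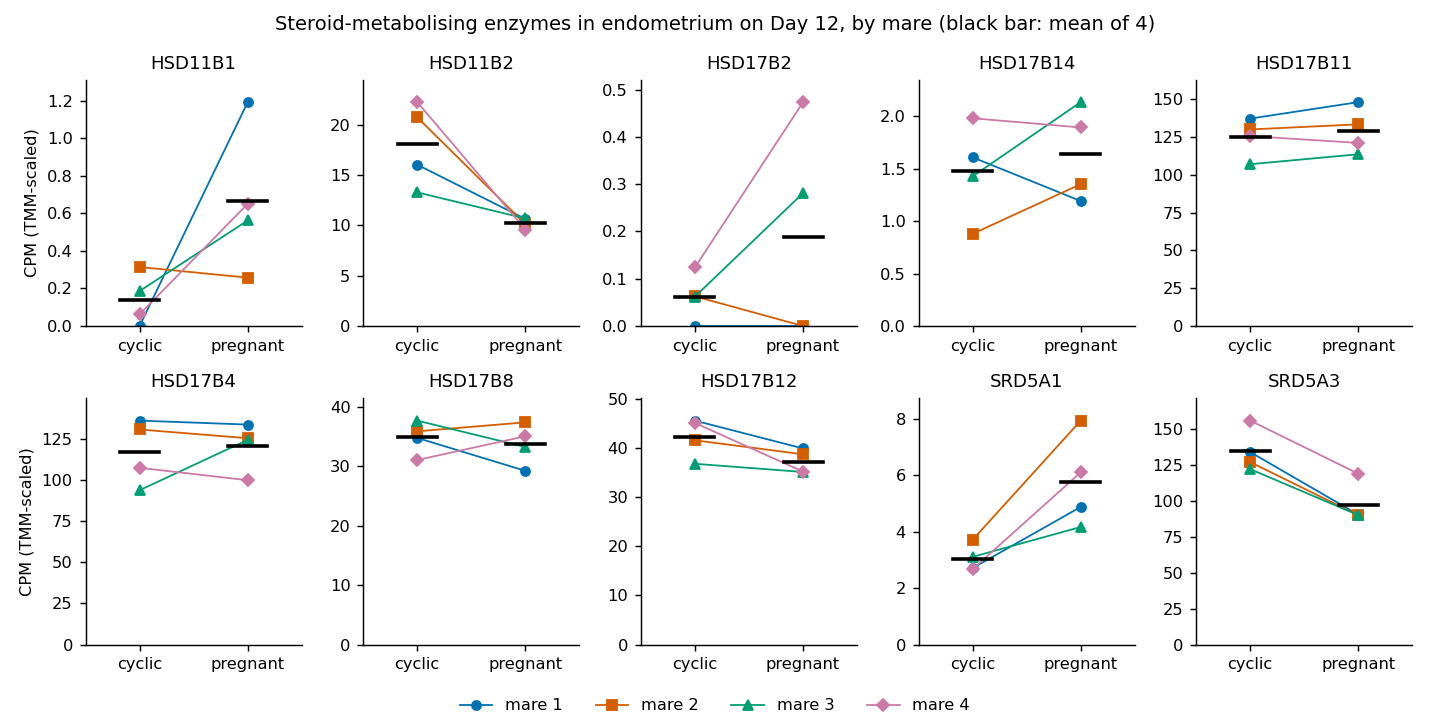
Level of each of the 10 enzymes in CPM (vertical axis, from 0) in the cyclic and the pregnant biopsy of each mare, with 1 line per mare and a black bar for the mean of 4. The lines of HSD11B2 and SRD5A3 go down in 4 of 4 mares and those of SRD5A1 go up in 4 of 4, HSD17B12 goes down slightly in 4 of 4, and the lines of the other 6 do not all go one way.

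Of the cortisol enzymes, HSD11B2 (Gene ID 100034124) was the readily detected one. Its cyclic libraries held 16.0, 20.7, 13.3 and 22.2 CPM for mares 1 to 4, and its pregnant libraries 10.6, 10.1, 10.7 and 9.59 CPM. Every pregnant library lay below every cyclic one, and the pregnant values were close together. The log2 fold change was -0.80 ± 0.15 (SE), a 1.74-fold fall, with adjusted p = 0.00810 by edgeR's quasi-likelihood test. Within mares the log2 ratio ran from -0.31 in mare 3, which had the lowest cyclic value, to -1.21 in mare 4, which had the highest. The cyclic value is the denominator of this ratio, so with pregnant values close together this order follows by arithmetic. The call held in 12 of 12 processing alternatives, with adjusted p up to 0.0376. The coefficient of variation was 22.9% over the cyclic and 5.00% over the pregnant libraries. Counting error alone gives about 8.24% at the 107 to 190 reads of the pregnant libraries, so the narrow pregnant range cannot be resolved further at this depth. In a biopsy, fewer cells of a type and less RNA per cell cannot be told apart.

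HSD11B1 (100056429), the enzyme that acts in the opposite direction, had 0, 5, 3 and 1 reads in the cyclic libraries of mares 1 to 4 and 12, 4, 10 and 11 in the pregnant ones. The counts were thus higher in pregnancy in 3 of 4 mares and lower in mare 2, and the groups overlapped. Mean levels were 0.141 ± 0.139 CPM in the cyclic and 0.666 ± 0.390 CPM in the pregnant libraries. For scale, 3 counts, the limit that a count of 0 allows, correspond to 0.180 to 0.306 CPM in these libraries, counting error only. An exact paired permutation test, two-sided, gave p = 0.250 for the difference in CPM of HSD11B1, where 4 pairs cannot go below 0.125. With no filter on low counts, edgeR gave an adjusted p of 0.102 and an unadjusted p of 0.0178; no fold is given, as the cyclic mean of HSD11B1 lies below what 3 counts give. A difference was therefore not established for HSD11B1 at this depth. H6PD, which supplies HSD11B1 with its reduced cofactor, had 222 ± 10.5 and 203 ± 16.7 CPM (log2 fold change -0.13 ± 0.07; adjusted p = 0.240).

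Among the enzymes that oxidise oestradiol or androgens, HSD17B14 and HSD17B11 were tested and showed no call, and HSD17B2 was too low to be tested. HSD17B2 (100146214), which converts oestradiol to oestrone and is known as a progesterone-induced gene of human endometrial epithelium, was close to the detection limit. It had 0, 1, 1 and 2 reads in the cyclic libraries and 0, 0, 5 and 8 in the pregnant ones. The 5 and 8 reads came from mares 3 and 4, and the exact paired permutation test, two-sided, gave p = 0.500. Mare 1 had 0 reads in both states, so its pair carries no information. The lowest p open to this test therefore lies above the 0.125 of 4 pairs. With no filter on low counts, edgeR gave an adjusted p of 0.457 and an unadjusted p of 0.183. A difference could not be shown for HSD17B2 by these tests. No fold is given for HSD17B2, whose means of 0.0622 and 0.189 CPM lie near or below what 3 counts give.

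HSD17B14 (100051311), which oxidises oestradiol in human cells, was also low, at 1.61, 0.880, 1.43 and 1.98 CPM in the cyclic state and 1.19, 1.35, 2.14 and 1.90 CPM in the pregnant state. It moved up in mares 2 and 3 and down in mares 1 and 4. Its fitted log2 fold change was 0.18 ± 0.26 (adjusted p = 0.689 in edgeR), with an approximate 95% interval from -0.33 to 0.70. On 12 to 38 reads per library, a change of the size seen for SRD5A3 lay outside this interval in the downward direction only. Such intervals rest on the normal distribution and are somewhat too narrow for so few mares. HSD17B14 overlaps PLEKHA4 in the RefSeq gene table, and PLEKHA4 had 134 to 232 reads per library. The library kit did not mark the strand, so reads of the shared stretch cannot be assigned with certainty. In the same gene table HSD17B14 also overlaps LOC138915938, SRD5A3 overlaps LOC106782997, HSD11B1 overlaps LOC138924034 and HSD17B12 overlaps 5 genes. LOC138915938, LOC106782997 and LOC138924034 had no row of counts. Nor had LOC138916571, LOC138916572 and LOC111776137 among the genes that overlap HSD17B12. Any reads of these uncounted genes cannot be told apart from those of the enzymes. HSD11B2 and SRD5A1 overlap 0 genes.

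HSD17B11 (100052823), a lipid droplet protein that oxidises an androgen metabolite, changed little within mares. It had 137, 130, 107 and 126 CPM in the cyclic state and 148, 133, 114 and 121 CPM in the pregnant state. Mare 1 had the highest and mare 3 the lowest value in each state, and the log2 ratios ran from -0.05 to 0.11. The fit gave a log2 fold change of 0.04 ± 0.06 (adjusted p = 0.692), with an approximate 95% interval from -0.08 to 0.17. An overlapping pseudogene held 1 to 8 reads per library, too few to move this level. HSD17B11 also overlaps LOC138923620, which had no row of counts. Any reads of LOC138923620 cannot be told apart from those of HSD17B11.

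HSD17B4, HSD17B8 and HSD17B12 carry the family name but act mainly on fatty acids. HSD17B4 (100034046), the bifunctional protein of peroxisomal beta oxidation, had 136, 131, 93.9 and 108 CPM in the cyclic state and 134, 126, 124 and 99.9 CPM in the pregnant state. It was lower in 3 mares by log2 ratios of -0.02 to -0.10 and higher in mare 3 by 0.41, and its groups overlapped. Over 4 mares the log2 fold change was 0.05 ± 0.09 (adjusted p = 0.739 in edgeR), with an approximate 95% interval from -0.12 to 0.23, and without mare 3 it was -0.07.

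HSD17B8 (100061414), a subunit of the ketoacyl reductase of mitochondrial fatty acid synthesis, had 34.8, 35.9, 37.7 and 31.0 CPM in the cyclic state and 29.2, 37.4, 33.2 and 35.0 CPM in the pregnant state. It went down in mares 1 and 3 and up in mares 2 and 4. Its log2 fold change was -0.05 ± 0.09 (adjusted p = 0.774), with an approximate 95% interval from -0.23 to 0.13.

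HSD17B12 (100050075), the ketoacyl-CoA reductase of very long chain fatty acid elongation, had 45.5, 41.5, 36.7 and 45.1 CPM in the cyclic state and 39.9, 38.7, 35.1 and 35.2 CPM in the pregnant state. It was lower in 4 of 4 mares, but the ranges overlapped and the call was missed. The log2 fold change was -0.18 ± 0.08, with an unadjusted p of 0.0431 and an adjusted p of 0.148 in edgeR, and 0 of 12 alternatives brought it past the threshold.

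The reductases SRD5A1 and SRD5A3 moved in opposite directions. SRD5A1 (100071450) had 2.70, 3.71, 3.10 and 2.67 CPM in the cyclic state and 4.87, 7.93, 4.16 and 6.10 CPM in the pregnant state, on 42 to 123 reads per library. Every pregnant library exceeded every cyclic one. This gave a log2 fold change of 0.90 ± 0.18, a 1.86-fold rise, with adjusted p = 0.0100 in edgeR's quasi-likelihood test, and the log2 ratios ran from 0.42 in mare 3 to 1.19 in mare 4. SRD5A3 (100059582) had 134, 127, 122 and 156 CPM in the cyclic state and 90.4, 90.0, 90.1 and 118.9 CPM in the pregnant state. Mares 1, 2 and 3 came to nearly the same pregnant level, and mare 4 was the highest in each state. The log2 fold change was -0.47 ± 0.06, a 1.39-fold fall, with adjusted p = 0.00177, and the log2 ratios were narrow, from -0.39 to -0.57. Within each mare the ratio of SRD5A1 to SRD5A3 reads was 1.82 to 3.02 times as high in pregnancy as in the cycle. This follows from their opposite changes in the same libraries and adds no support. Without the mare as block the adjusted p was 0.0731 for SRD5A1 and 0.0721 for SRD5A3, whereas HSD11B2 kept its call at 0.0369.

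**Figure D2:**
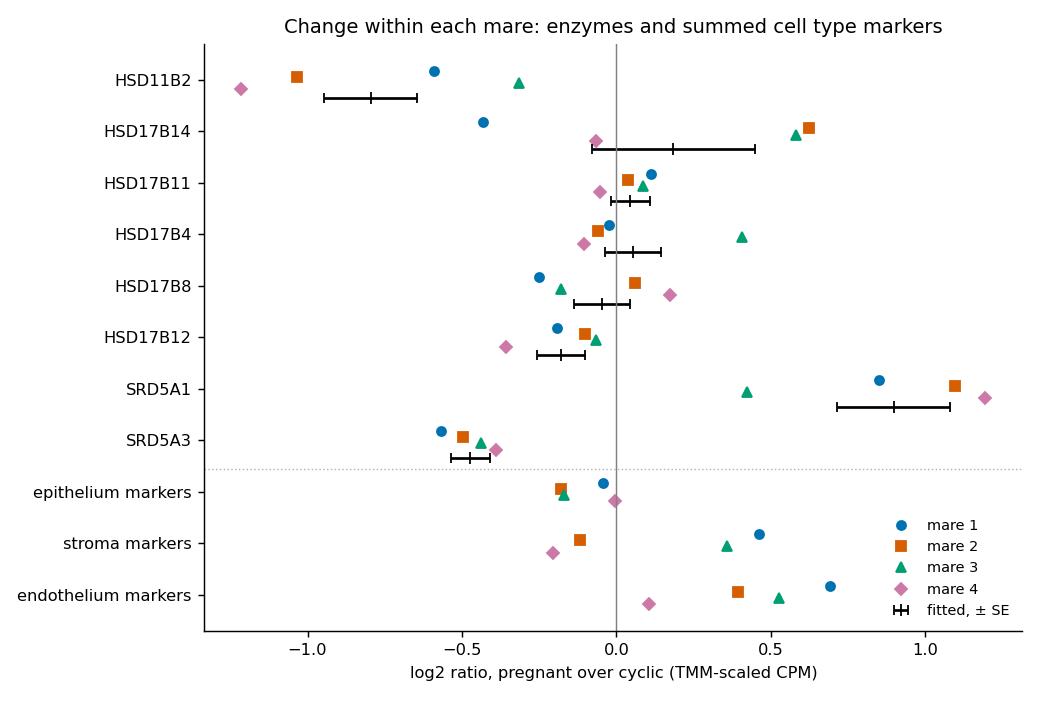
Log2 ratio of pregnant over cyclic CPM within each mare (coloured symbols) for the 8 tested enzymes, with the fitted log2 fold change and its SE in black, and below the dotted line the same ratio for summed markers of epithelium, stroma and endothelium. All 4 mares lie left of 0 for HSD11B2, SRD5A3 and HSD17B12 and right of 0 for SRD5A1; epithelial marker sums lie between -0.18 and -0.00.

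Some cell type markers changed too, and markers of each expected cell type were present. The counts of called markers stand beside 8.53% of all genes tested higher and 8.19% lower in pregnancy. The summed level of 15 epithelial markers was 2797 to 3362 CPM in the cycle and 2628 to 2970 CPM in pregnancy, lower in 4 of 4 mares, and 4 of the 15 fell, namely KRT7, PROM1, KRT18 and ESRP2. The log2 ratio of this sum was -0.00 to -0.18 within mares. Taken singly, 11 of the 15 markers had a log2 fold change below 0 and 4 above 0. Of 15 endothelial markers 11 rose, with a sum of 1080 to 1784 CPM in the cycle and 1418 to 1947 CPM in pregnancy, and of 10 smooth muscle and pericyte markers 5 rose, with 426 to 680 and 645 to 958 CPM. Of 10 stromal markers tested 6 rose, while the sum of the 11 counted was 3990 to 5425 CPM in the cycle and 4709 to 5553 CPM in pregnancy, higher in 2 of 4 mares. Of 12 T and NK cell markers 3 rose (sum 73.1 to 113 and 91.8 to 133 CPM), as did 1 of 9 macrophage and dendritic cell markers (116 to 173 and 151 to 165 CPM) and 1 of 9 ciliated cell markers (132 to 319 and 166 to 302 CPM). In each list 0 markers were without reads over all libraries. The part of cell composition in the changes of HSD11B2, SRD5A1 and SRD5A3 was not tested.

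Differences between mares were tested over both states in the same model. SRD5A3 differed between mares (adjusted p = 0.0454 in edgeR's quasi-likelihood test), 1 of the 8 enzymes tested, beside 15.9% of all genes tested. The call was lost without any 1 of the mares (0.0775, 0.0559, 0.0693 and 0.832 without mares 1 to 4), with library totals (0.0701), with limma-voom (0.0592) and after thinning every library to the depth of the shallowest (0.0532). HSD17B11 had the largest mare share among the 8, with 92.6% of the variation of its log2 CPM (as a share of the total sum of squares), but missed the threshold (adjusted p = 0.0748). The state accounted for 77.1% in HSD11B2, 71.2% in SRD5A1, 70.1% in SRD5A3 and 42.3% in HSD17B12. The mean over all genes tested was 23.8%. HSD11B2, SRD5A1 and SRD5A3 were called for the state in these same libraries. Their high state shares follow from those calls and add no support. In HSD17B4, HSD17B8, HSD17B11 and HSD17B14 the state share was 1.98% to 4.81%. In HSD11B2 the mare accounted for 7.23%, next to a mean of 53.5% over all genes tested. State, mare and remainder divide 1 total, so the high state share of HSD11B2 leaves little for the mare. Its low mare share is therefore not a separate result. These shares are not scaled for the number of levels. On average, 4 mares take a larger share than 2 states even where neither differs.

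**Figure D3:**
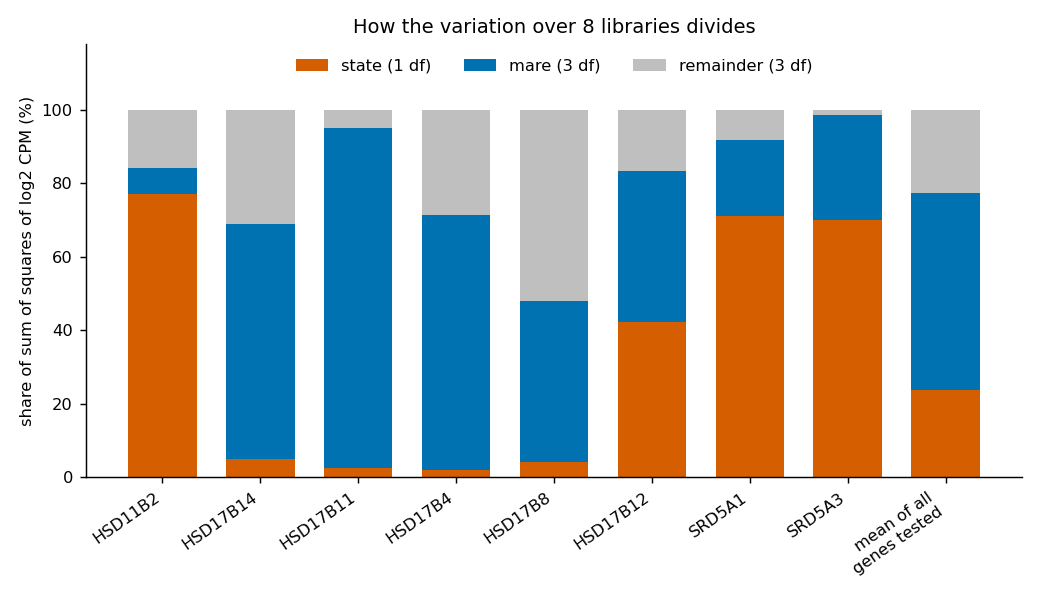
Share of the total squared deviation of log2 CPM over the 8 libraries (vertical axis, percent) that goes with the state, the mare and the remainder, for the 8 tested enzymes and as the mean over all genes tested. The state holds 70.1% to 77.1% in HSD11B2, SRD5A1 and SRD5A3, and the mare holds 92.6% in HSD17B11. Shares are not scaled for the numbers of mares and states.

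Of the rest of steroid metabolism, 65 genes were listed, 54 had a row in the table and 36 were tested. Of these 36, 6 rose and 1 fell, beside 8.53% and 8.19% of all genes tested. The 7 in all are a share close to the background of 16.7%. The number changed was 4 without mare 3, 3 without mare 1 and 1 without the mare block. Of the 11 counted genes of steroid synthesis from cholesterol 7 were tested, and 1 changed. Among those tested, STARD3, a late endosomal cholesterol transfer protein, had 8011 reads over all libraries, and TSPO, an outer mitochondrial membrane protein, had 3626. Several catalytic steps were near the detection limit. CYP11A1, which opens the pathway by cleaving the cholesterol side chain, had 28 reads over the 8 libraries, HSD3B2, which makes progesterone from pregnenolone, had 31, and the aromatase CYP19A1 had 3. AKR1C1, whose synonym in the gene table is the equine AKR1C23, had 4. These 4 genes did not pass the filter. The riser of the synthesis list was HSD3B7, a bile acid enzyme that does not make steroid hormones, from 43.9 ± 3.23 to 66.4 ± 8.51 CPM (log2 fold change 0.59 ± 0.08; adjusted p = 0.00161). Its ranges did not overlap, with 39.4 to 47.1 CPM in the cycle and 58.6 to 78.4 CPM in pregnancy. In the hydroxylation list 3 of 7 genes rose, beside 8.53% of all genes tested. They include CYP27A1, the sterol 27-hydroxylase, at 13.5 ± 2.10 and 20.8 ± 4.80 CPM (adjusted p = 0.0116), and CYP39A1, an oxysterol hydroxylase, at 3.28 ± 1.19 and 5.12 ± 1.64 CPM (adjusted p = 0.0297). CYP7B1, another oxysterol hydroxylase of that list, had 2.48 ± 0.827 and 1.85 ± 1.17 CPM and was lower in 4 of 4 mares without a call (log2 fold change -0.54 ± 0.27; adjusted p = 0.212). The CYP27A1 call was lost without mare 1 (adjusted p = 0.0681), and that of CYP39A1 without each mare in turn (0.0559 to 0.121), with DESeq2 (0.0816) and after thinning (0.0776).

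CYP1B1, which hydroxylates oestradiol to a catechol, rose from 5.57 ± 2.53 to 8.98 ± 4.15 CPM (log2 fold change 0.69 ± 0.14; adjusted p = 0.0102 in edgeR, 0.0704 without mare 1). In conjugation, SULT1E1, which inactivates oestradiol by sulfation, rose within every mare from very different starting levels. It had 2.38, 4.15, 14.3 and 7.50 CPM in the cyclic state and 2.98, 6.38, 22.7 and 11.4 CPM in the pregnant state, so the range over mares was wider than the change within any mare (log2 fold change 0.58 ± 0.12; adjusted p = 0.0110, but 0.0862 without mare 3 and 0.0510 after thinning; between mares, adjusted p = 1.55e-04). PAPSS2, which makes the sulfate donor used by such enzymes, fell from 1316 ± 334 to 928 ± 245 CPM (log2 fold change -0.51 ± 0.09; adjusted p = 0.00629). STS, which removes the sulfate, had 1.40 ± 0.379 and 1.75 ± 0.371 CPM (adjusted p = 0.380). DHRS7, a short-chain dehydrogenase, rose from 25.8 ± 5.71 to 37.6 ± 6.87 CPM (adjusted p = 0.0281), a call lost without mare 1, 3 or 4 (up to 0.125). Of 8 cofactor genes 0 changed in edgeR (2 at an unadjusted p under 0.05; 1 in DESeq2 and 0 in limma-voom). The electron donor of microsomal cytochrome P450 enzymes, POR, had 191 ± 53.8 and 349 ± 260 CPM (adjusted p = 0.371, and 0.00871 without mare 2). Its pregnant values were 302.5, 110.0, 717.3 and 265.1 CPM for mares 1 to 4, so the pregnant mean leans on mare 3.

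**Figure D4:**
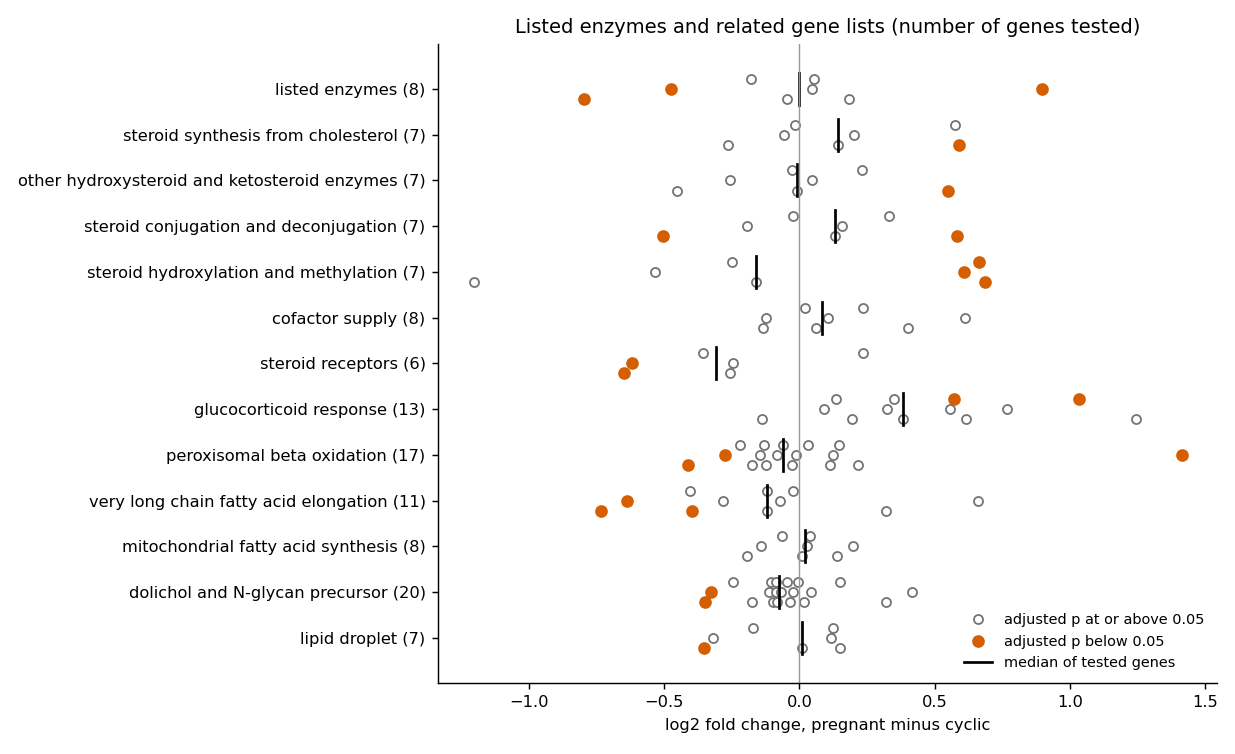
Log2 fold change, pregnant minus cyclic (horizontal axis), of each tested gene in the listed enzymes and 12 related lists, with filled points for an adjusted p below 0.05 and a black bar for the list's median. The listed enzymes hold 3 filled points, 1 right and 2 left of 0, and the 3 filled points of very long chain fatty acid elongation all lie left of 0.

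The receptors that read these hormones were measured in the same libraries. ESR1, the oestrogen receptor alpha, was 210 to 385 CPM in the cycle and 145 to 208 CPM in pregnancy, with no overlap between the groups (log2 fold change -0.65 ± 0.11; adjusted p = 0.00391). The receptors of cortisol and aldosterone missed the threshold, with NR3C1 at 41.3 ± 4.33 and 35.0 ± 5.67 CPM (adjusted p = 0.0756) and NR3C2 at 16.8 ± 3.06 and 19.8 ± 3.68 CPM (adjusted p = 0.177). The progesterone receptor PGR had 36.0 ± 7.63 and 28.0 ± 6.66 CPM (adjusted p = 0.234, and 0.0386 without mare 2).

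Of 13 genes known to respond to glucocorticoids, 2 rose and 0 fell, beside 8.53% and 8.19% of all genes tested. The median log2 fold change over the 13 was 0.38, next to 0.00 over all genes tested. CRISPLD2, a secreted glucocorticoid-inducible protein, rose from 402 ± 59.7 to 593 ± 43.4 CPM (adjusted p = 0.00256). The log2 fold change was above 0 for 12 of the 13, but 11 of the 13 carried no call. FKBP5 was higher in 2 of 4 mares and lower in 2 (log2 fold change 0.09, adjusted p = 0.772 in edgeR). For PER1 the log2 fold change was -0.14 (adjusted p = 0.508 in edgeR). Summed markers of endothelium and of smooth muscle were higher in pregnancy in 4 of 4 mares, as given above, and their part in this list was not tested.

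The lists around the fatty acid and lipid roles of the enzymes are read against the 16.7% of all genes tested that changed, 8.53% higher and 8.19% lower. In very long chain fatty acid elongation, the cycle that uses HSD17B12, 3 of 11 genes fell and 0 rose, all of them elongases. ELOVL2 fell from 43.4 ± 10.7 to 28.6 ± 10.6 CPM (log2 fold change -0.64 ± 0.09; adjusted p = 0.00229), ELOVL3 from 30.5 ± 6.17 to 19.0 ± 7.19 CPM (-0.73 ± 0.14; adjusted p = 0.00839) and ELOVL5 from 243 ± 70.2 to 182 ± 30.0 CPM (-0.40 ± 0.11; adjusted p = 0.0384, lost without mare 1, 2 or 4, up to 0.139, and with library totals, 0.0890). In peroxisomal beta oxidation, the pathway of HSD17B4, 1 of 17 rose and 2 fell. PECR, an enoyl-CoA reductase, rose from 0.772 ± 0.270 to 2.04 ± 0.431 CPM (adjusted p = 0.00767), SCP2, the sterol carrier protein, fell from 173 ± 33.5 to 130 ± 24.0 CPM (adjusted p = 0.00801), and CRAT, the carnitine acetyltransferase, fell from 126 ± 10.1 to 105 ± 20.6 CPM (adjusted p = 0.0463, lost without each mare in turn, 0.0612 to 0.141, with library totals, 0.147, a stricter filter, 0.0510, or thinning, 0.0531). In mitochondrial fatty acid synthesis, the pathway of HSD17B8, 0 of 8 changed in edgeR (0 at an unadjusted p under 0.05, and 0 in DESeq2 and in limma-voom). MECR, its enoyl reductase, had 100.4 ± 1.75 and 103 ± 4.36 CPM, and the acyl carrier protein NDUFAB1 had 17.0 ± 1.69 and 17.3 ± 3.73 CPM.

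In the dolichol and N-glycan precursor pathway, where SRD5A3 acts, 2 of 20 genes fell and 0 rose, against a fall of 8.19% of all genes tested. DOLPP1, which recycles the dolichol carrier, fell from 51.9 ± 8.12 to 41.0 ± 8.15 CPM (log2 fold change -0.35 ± 0.07; adjusted p = 0.0129). ALG14, part of the transferase that adds an early sugar to it, fell from 51.6 ± 6.72 to 41.0 ± 3.03 CPM (-0.32 ± 0.09; adjusted p = 0.0324, lost without mare 1, 2 or 4, up to 0.118, and with library totals, 0.0694). SRD5A3 itself fell by 0.47 on the log2 scale. Of 7 lipid droplet genes, where HSD17B11 resides, 1 fell, PLIN2, from 250.4 ± 46.4 to 194 ± 9.34 CPM (adjusted p = 0.0451, lost without mare 1, 2 or 3, up to 0.190, and with library totals, 0.0971).

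The genes whose log2 CPM followed the changed enzymes most closely were sought among 12725 genes, by Pearson correlation over the 8 libraries, which share 4 mares and the 2 states. For HSD11B2 they were SEC22B (r = 0.978), RARS2 (0.977) and EFR3B (0.976). For SRD5A1 they were IFIT1B (0.986), EMP1 (0.969) and AJUBA (0.965), and for SRD5A3 they were ARPIN (0.994), TUBGCP4 (0.980) and ZBTB18 (0.979). With this many candidates and 8 libraries, high coefficients are common, and they are given as a description only.

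**Figure D5:**
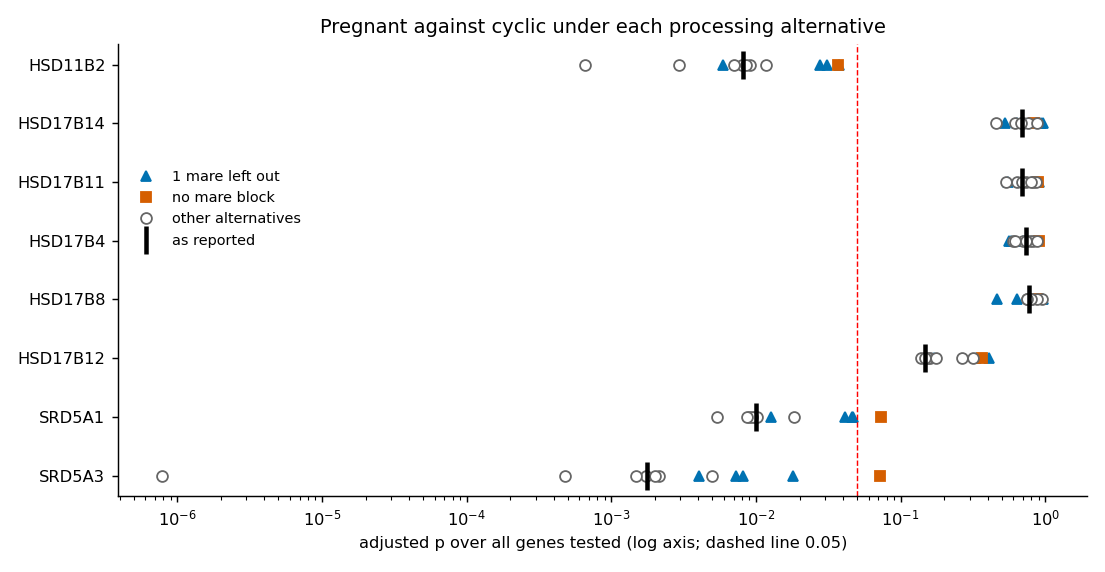
Adjusted p of the comparison of pregnancy with the cycle (horizontal log axis, dashed line at 0.05) for the 8 tested enzymes, as reported (black bar), with 1 mare left out (triangles), without the mare block (squares) and under the other alternatives (circles). HSD11B2 stays left of the line throughout, SRD5A1 and SRD5A3 cross it only without the mare block, and the other 5 stay right of it.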

How the data were processed

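The authors deposited raw read counts per NCBI Gene ID for the 8 libraries, and scaled signal for 14037 of them. The deposited signal was compared with CPM after TMM scaling (trimmed mean of M values) and 100% of values matched to a relative 1e-06; it was used for this check only. The submitters' processing notes name Trimmomatic 0.32.2 and HISAT2 2.0.3; which build, annotation and counter were used is not given in the sources used here. Per the labels' protocols, poly(A) RNA of integrity 8.3 to 9.2 was used, with a kit that does not mark the strand. Symbols were looked up by Gene ID (85.9% matched) in RefSeq's gene table for the thoroughbred telomere-to-telomere assembly, which may differ from the build used, so no coordinates are given, and no sequences were used.

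In R 4.3.3 with edgeR 4.0.16, filterByExpr (minimum count 10) kept 15342 genes, with 99.9% of each library's counts, TMM was applied, and the robust quasi-likelihood F-test compared pregnant with cyclic libraries with the mare as block. P-values were adjusted over all genes tested by the Benjamini-Hochberg method. The SE is the log2 fold change divided by the square root of F. The approximate 95% intervals take the normal distribution for this SE and are somewhat narrower than the F-test implies. The pairing comes from the series' design text. Libraries of 1 mare deviated together from their group means (r = 0.377 to 0.536 across genes, against at most -0.01 between mares). Subtracting the group means pushes the values between mares below 0 where those within mares are positive, so this contrast is partly built in. The main fit was tested on simulated data with known changes, where false calls exceeded the nominal rate. No libraries of the same group were duplicates (lowest chi-square per degree of freedom 24.6), and 0 sample columns were left unused. Library totals of 9.81 to 16.7 M limit the low genes, and counting limits cover counting error only.

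The enzymes and the 19 related lists (12 pathway, 7 cell type) were chosen with earlier results of these data known. Named are all 10 enzymes, per pathway list up to 4 called genes of smallest p or, with none, 2 of the highest level, and 11 fixed genes found in the table; a few of the genes so named are not reported here. The alternatives were no block, other scalings (DESeq2 1.42.0 size factors, library totals), other filters, DESeq2, limma-voom (limma 3.58.1), thinning to the shallowest library and leaving out each mare.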

Additional observations from a re-analysis of the deposited data

Results flagged for a closer look

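In 8 of 84 groups of 4 libraries, the highest or lowest library stood apart from the other 3 beyond Dixon's critical value for 4 samples at 95%; chance alone flags about 1 in 20 groups. The pregnant library of mare 4 had 118.9 CPM of SRD5A3, against 90.0 to 90.4 CPM in the other 3; without mare 4 the log2 fold change of SRD5A3 was -0.50 (adjusted p = 0.00401 in edgeR). The pregnant library of mare 1 had 9.81 M counts, against 16.4 to 16.7 M in the others. The pregnant library of mare 3 had 47.7 CPM of DHRS7 (others 32.6 to 35.1). The cyclic library of mare 3 had 271.5 CPM of POR (others 159.8 to 166.3). Its pregnant library, at 717.3 CPM of POR (others 110.0 to 302.5), was not flagged by this rule. The cyclic library of mare 2 had 206.4 CPM of H6PD (others 224.8 to 228.4). The pregnant library of mare 1 had 2.69 CPM of PECR (others 1.78 to 1.91). The pregnant library of mare 2 had 38.0 CPM of PGR (others 24.4 to 25.2). The summed ciliated cell markers were 166.3 CPM in the pregnant library of mare 4 (others 284.9 to 301.9).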

How the results depend on the processing

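For the 8 tested enzymes, 93 of 95 values under 12 alternatives kept their side of the threshold. The other 2 were SRD5A1 and SRD5A3 without the mare as replicate block. That fit called 1 enzyme in place of 3, 1 of the other steroid metabolism genes in place of 7, and 389 genes (268 higher, 121 lower) in place of 2565. Leaving out 1 mare gave 1266 to 2057 changed genes (1266 without mare 1), 3 changed enzymes each time, and 3 to 7 other steroid metabolism genes. The number of enzymes differing between mares was 0 in place of 1 with library totals, limma-voom, thinning or any mare left out (0 to 0). With library totals 1416 genes rose and 864 fell, against 1309 and 1256. HSD17B4 and HSD17B8, never called, changed sign in 1 alternative each. Of 311 values of 26 other named genes, 48 lost and 2 gained the threshold, and no called gene changed sign; MECR (1 alternative) and NDUFAB1 (2 alternatives), never called, did. Without the mare block the adjusted p of those reported as changed was 0.0532 to 0.706, apart from HSD3B7 (0.0261) and CRISPLD2 (0.0470), which kept their calls. The cause of these differences was not tested. HSD17B14 has no value under the stricter filter, which removed it, and depth limits HSD11B1 and HSD17B2.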
